A study of Mus musculus with 3 samples.

Results

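Acute-phase proteins are plasma and secreted proteins whose production changes during infection and tissue injury. The 7 genes examined here were Hp, Serpina3n, Wfdc21, Lcn2, Saa3, Orm1 and Cp, followed across 3 adhesion states of mouse cardiac myofibroblasts, the contractile and matrix-producing fibroblasts of the injured heart. They were chosen as a family of acute-phase and related secreted genes, and Hp, Serpina3n and Wfdc21 were picked for their pattern on these same arrays, so all levels and differences below are a description. Each of the 7 genes had 1 probe, and 6 of them were among the 15393 genes with a signal well above background on at least 1 array, out of 20660 named genes with a probe. The exception, Orm1, did not pass on any array.

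The acute-phase response is best known from the liver, where interleukin-6, interleukin-1 and tumour necrosis factor reach hepatocytes through the blood and, through STAT3, C/EBP and NF-kappaB factors, raise the transcription of a set of secreted genes, with glucocorticoids adding to the response. Several of these genes are also transcribed outside the liver, by fibroblasts, macrophages, neutrophils, epithelia and fat. Their products bind haemoglobin, iron or lipid, or inhibit proteases.

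The cells came from C57BL/6J male mice whose left anterior descending coronary artery had been tied off permanently, with hearts collected 3 days later. The labels give an age of 8 weeks in one field and 10 weeks at surgery in the protocol. Cardiac cells were released with collagenase and elastase and left to attach to plastic overnight. They were depleted of leukocytes with magnetic beads against the leukocyte surface protein CD45, and the remainder were taken as myofibroblasts. Adherent cells were then grown on plastic plates, non-adherent cells were moved from plates into suspension in dishes to which cells do not attach, and re-adherent cells were returned from suspension to plastic. All 3 states thus shared the infarct, the strain, the sex and the CD45 depletion. Each state was measured on 1 array, and the design text describes RNA mixed from several hearts, so there is no spread between replicates and no test between states. The states were collected in sequence, so time in culture cannot be told apart from adhesion state, and the study's methods describe a large loss of cells in suspension. In such bulk RNA, a change in the number of cells of a type and a change in RNA per cell cannot be told apart.

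Signals are background-subtracted spot intensities in arbitrary units, and differences are log2 differences after each array was divided by its 75th percentile of signal, which was 651, 697 and 541 for adherent, non-adherent and re-adherent cells. The error given with a difference is the technical error that the scanner software assigns to the spots, with a median of 0.20 over all genes, and it says nothing about biological spread. Between 53.9% and 59.9% of the 59305 non-control spots were well above background. Over all genes the median difference was -0.07 for non-adherent against adherent cells, 0.08 for re-adherent against non-adherent cells and 0.06 for re-adherent against adherent cells. The labelled cell type could be checked in part with Acta2, the smooth muscle actin that defines myofibroblasts. Its signal was 435300 in adherent, 4690 in non-adherent and 345280 in re-adherent cells. Acta2 was thus high on the plated arrays but 99.4-fold lower in non-adherent than in adherent cells. Of 8 myofibroblast markers, 4 were more than 4-fold lower in that comparison (5.34% of all genes) and none was more than 4-fold higher (7.61%). Acta2 therefore did not bear out the label for the non-adherent array. The paper proposes that these cells had de-differentiated.

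**Figure D1:**
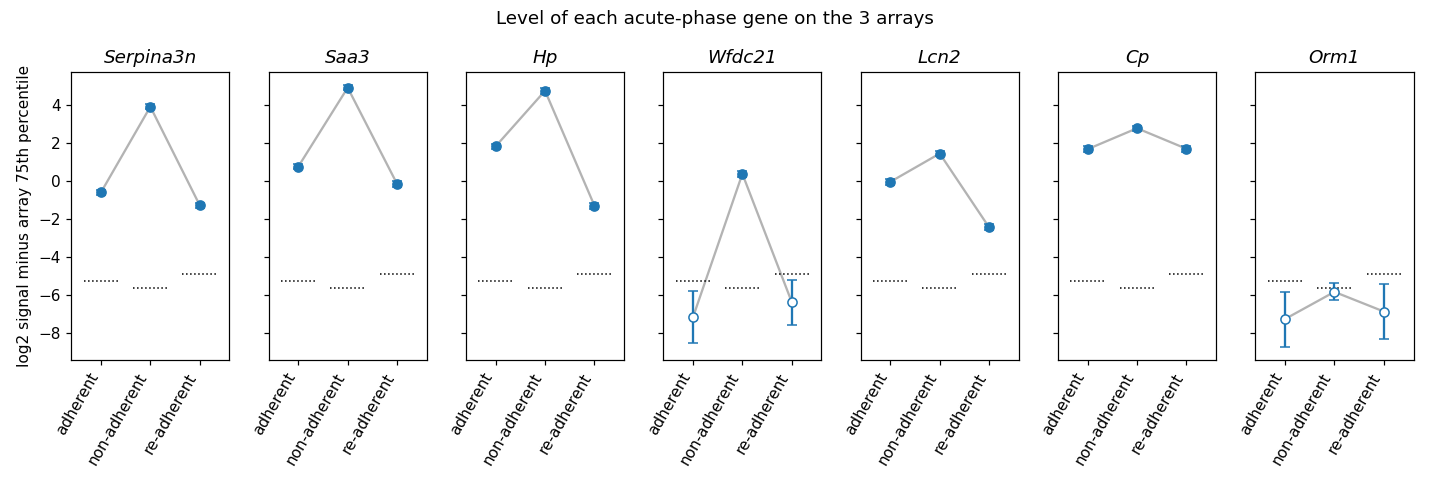
Log2 signal, relative to the 75th percentile of its array, of the 7 acute-phase genes in each adhesion state (adherent, non-adherent, re-adherent), 1 array each. Error bars are the technical error of the scanner software, open circles are signals not well above background and dotted ticks mark the lowest signal well above background on each array. The non-adherent signal was the highest of the 3 for every gene, and Orm1 was not well above background anywhere.

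The acute-phase genes had their highest signal in suspension. Of the 6 that could be measured, 4 (Serpina3n, Saa3, Hp and Wfdc21) were more than 4-fold higher in non-adherent than in adherent cells and none was more than 4-fold lower. Of all 15393 genes, 7.61% were more than 4-fold higher and 5.34% more than 4-fold lower in this comparison, and since genes were picked on it nothing is read from the count. On re-adhesion, 5 of 6 (all but Cp) were more than 4-fold lower, against 6.05% of all genes, and none was more than 4-fold higher, against 5.7%. At a 2-fold threshold all 6 were higher in suspension, against 17.2% of all genes (14.7% were lower), and all 6 were lower on re-adhesion, against 16.3% (15.6% were higher). Passing 4-fold in both steps, up and then down, were 4 of the 6, against 4.29% of all genes. Hp, Serpina3n and Wfdc21 were picked for their pattern, and Wfdc21 was among the 6 only through its signal in suspension. Nothing is therefore read from any of these counts. The median difference of the 6 was 3.55 in suspension and -5.14 on re-adhesion.

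Serpina3n and Saa3 had nearly the same profile. Serpina3n, a secreted inhibitor of serine proteases such as granzyme B and leukocyte elastase, gave a signal of 432 in adherent, 10617 in non-adherent and 224 in re-adherent cells. Saa3, a serum amyloid A apolipoprotein made mainly outside the liver by macrophages, fat and other tissues, gave 1108, 21259 and 489. The non-adherent signal thus stood far above both plated states, and the re-adherent signal lay below the adherent one for each gene. Serpina3n was 23.0-fold higher in suspension (log2 difference 4.52 ± 0.20, technical error, 1 array per state). Of the 15393 genes, 48 had a larger difference. Serpina3n was picked for its pattern on these arrays, so nothing is read from that rank. It was 36.9-fold lower after re-adhesion. For Saa3 the corresponding values were 17.9-fold (4.16), with 70 genes above it, and 33.8-fold. Against adherent cells, re-adherent cells had 1.60-fold less Serpina3n (log2 difference -0.68 ± 0.21) and 1.88-fold less Saa3 (-0.91 ± 0.20). The sign held under all 10 alternative processings tried. Those that only changed the filter, raised low signals, averaged probes or kept flagged spots could not change it for these genes.

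Sequence upstream of the transcription start is shown for Saa3 and Serpina3n, as the pair with the most similar profile, and for Lcn2, whose profile differed from theirs. The 250 bases before the start come from RefSeq on the mouse assembly GRCm38.p6. Capitals mark matches, on either strand, to a C/EBP-type motif TTGCNNAA or to the glucocorticoid-type half-site TGTTCT (reverse complement AGAACA).
Saa3, chr7:46715677-46715926, minus strand: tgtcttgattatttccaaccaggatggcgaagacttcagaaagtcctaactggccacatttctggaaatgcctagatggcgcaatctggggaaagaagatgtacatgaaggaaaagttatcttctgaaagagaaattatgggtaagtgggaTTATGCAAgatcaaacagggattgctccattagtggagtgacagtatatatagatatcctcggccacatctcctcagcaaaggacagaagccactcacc
Serpina3n, chr12:104406458-104406707, plus strand: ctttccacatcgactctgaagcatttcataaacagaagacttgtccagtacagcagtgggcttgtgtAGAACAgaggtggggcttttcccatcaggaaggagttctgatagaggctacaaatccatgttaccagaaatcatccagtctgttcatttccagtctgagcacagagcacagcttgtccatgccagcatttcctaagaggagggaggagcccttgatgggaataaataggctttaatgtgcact
Lcn2, chr2:32387740-32387989, minus strand: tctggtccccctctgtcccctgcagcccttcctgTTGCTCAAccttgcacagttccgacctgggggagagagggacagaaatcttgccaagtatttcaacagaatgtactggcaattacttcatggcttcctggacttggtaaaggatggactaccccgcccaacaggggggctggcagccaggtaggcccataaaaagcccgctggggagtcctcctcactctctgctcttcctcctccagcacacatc
Of the 5 windows matched to 4 of the genes (Cp had 2, and Hp, Wfdc21 and Orm1 were not in the table), 3 held the C/EBP-type motif, namely Saa3 from 99 to 92 bases before the start, Lcn2 from 216 to 209 and 1 window of Cp from 70 to 63. Of 32851 windows of the same length, 9.56% held it. The TGTTCT half-site stood in 2 of the 5, namely Serpina3n from 183 to 178 bases before the start and the other Cp window from 110 to 105, against 16.1% of all windows. A STAT-type palindrome TTCNNNGAA (7.02% of all windows) and the NF-kappaB motif (3.9%) were in none of the 5, which says only that those letters are not in these windows. Saa3 and Serpina3n, with the similar profile, therefore shared none of the 4 motifs searched. A match of letters is a description and not a site of binding.

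Hp differed from that pair in having a high signal on plates before suspension and a far lower one after it. Hp encodes haptoglobin, which captures free haemoglobin for uptake by the macrophage receptor CD163. Its signal was 2325 in adherent, 18996 in non-adherent and 221 in re-adherent cells. The 3 states were thus well separated relative to the technical error, with re-adherent cells lowest. Hp was 7.63-fold higher in suspension (log2 difference 2.93 ± 0.20), a difference that 436 genes exceeded, and 66.8-fold lower after re-adhesion (-6.06). On re-adhesion 0.162% of genes had a more negative difference. Hp was picked for its pattern on these arrays, so nothing is read from these ranks. Re-adherent cells had 8.75-fold less Hp than adherent cells (-3.13 ± 0.21).

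Lcn2, which encodes lipocalin-2, a carrier of iron-binding siderophores stored in neutrophil granules and made by many stressed cells, moved less in suspension but also ended lower than it began. Its signal was 636 in adherent, 1916 in non-adherent and 100.1 in re-adherent cells. The order of the states was the same as for Hp. Lcn2 was 2.82-fold higher in suspension (1.49), 14.9-fold lower on re-adhesion (-3.89) and 5.28-fold lower in re-adherent than in adherent cells (-2.40 ± 0.22). Hp and Lcn2 were the 2 genes of the 6 more than 4-fold lower in re-adherent than in adherent cells, against 1.29% of all genes, and none of the 6 was more than 4-fold higher, against 1.36%. At 2-fold the same 2 genes were lower, against 4.9% of all genes, and none higher, against 4.84%. Hp was picked for its pattern on these arrays, so nothing is read from these counts either. With a model-based (normexp) background correction the difference of Lcn2 was -1.84, under 4-fold, and Hp alone remained past it.

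Cp encodes ceruloplasmin, a copper-containing ferroxidase that loads iron onto transferrin. Its signal was 2099 in adherent, 4829 in non-adherent and 1770.3 in re-adherent cells. Its re-adherent signal lay within the technical error of its adherent signal, which was not so for Hp, Serpina3n, Lcn2 or Saa3. It was 2.15-fold higher in suspension (1.10) and 2.12-fold lower on re-adhesion (-1.08), and re-adherent minus adherent was 0.02 ± 0.20, with an interval from technical error alone of -0.38 to 0.42. The sign of that last difference depended on the scaling, with a lowest value of -0.41 under spike-in scaling. Spots around the Cp spot on the array, within 5 rows and columns, differed in the same direction, by a median of 0.41 in suspension and -0.40 on re-adhesion relative to the whole array, and their part in the Cp values was not tested. Around the spots of Hp, Serpina3n, Lcn2, Saa3 and Orm1 these medians lay between -0.19 and 0.15.

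**Figure D2:**
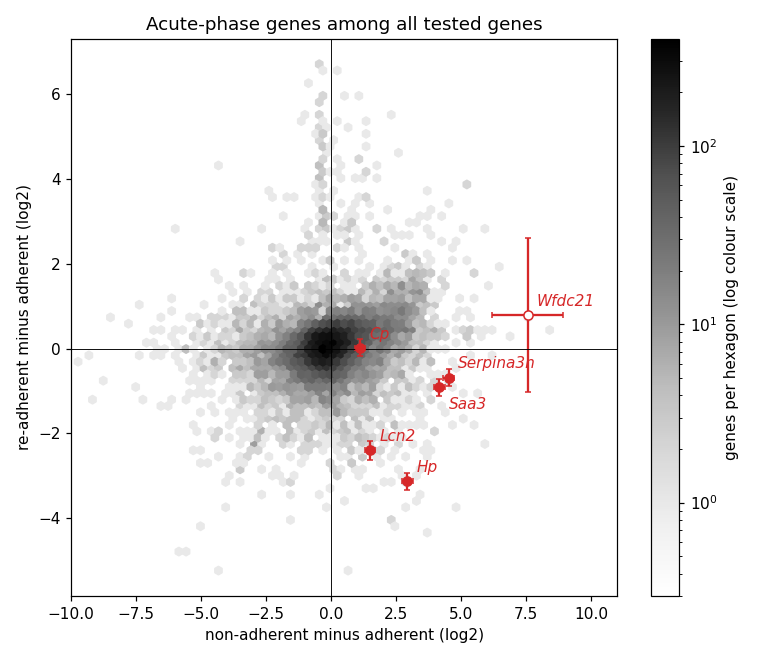
Log2 difference of non-adherent minus adherent cells (x) against re-adherent minus adherent cells (y) for the tested genes, shaded by the number of genes per hexagon, with the 6 measured acute-phase genes in red and technical errors as bars. Both axes share the adherent array. Serpina3n and Saa3 lie together at the right, Hp and Lcn2 lie below them at -3.13 and -2.40, Cp lies at 0.02, and the open Wfdc21 point is not well above background on either plated array.

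Wfdc21 encodes a small secreted protein with a WAP (whey acidic protein) domain, known from neutrophils and dendritic cells. Its probe was printed 10 times on each array, which allows the scatter between spots to be seen. In adherent cells the 10 spots ranged from 3.30 to 6.70 (median 4.36) and in re-adherent cells from 3.68 to 16.3 (median 5.08), and none was well above background. In non-adherent cells the 9 spots used ranged from 824 to 974 (median 930), with an SD between spots of 0.07 on the log2 scale, and all 9 were well above background. The spots of the non-adherent array did not overlap with those of either other array. Set against the lowest signal well above background on each plated array, Wfdc21 was at least 50.9-fold higher in suspension than in adherent cells and at least 38.7-fold higher than in re-adherent cells. No fold is given between the plated states, where it was not well above background in either. The spots are repeats of 1 probe on 1 labelled RNA and say nothing of variation between cultures.

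**Figure D3:**
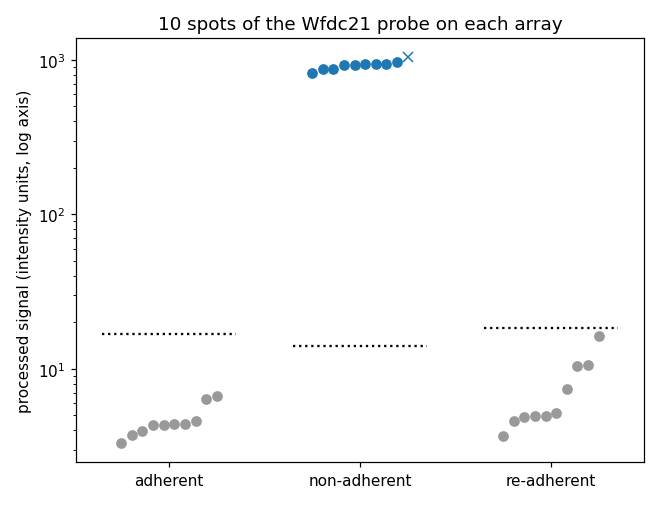
Processed signal (log axis, arbitrary units) of each of the 10 Wfdc21 spots on each array, in blue where well above background and grey where not. The cross is a spot the scanner software marked as an outlier, left out, and dotted lines are the lowest signal well above background. All spots used on the non-adherent array lie between 824 and 974, and those of the other arrays lie at or below 16.3.

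Orm1, an orosomucoid or alpha-1 acid glycoprotein that carries lipids and drugs in plasma, gave a signal of 4.23 in adherent, 12.2 in non-adherent and 4.63 in re-adherent cells. None of these was well above background, so no fold is given. Orm1 is an acute-phase gene of the liver, and the hepatocyte genes Alb, Apoa1, Ttr and Fgb likewise failed to reach a signal well above background in any state. The 4 hepatocyte markers that were measured summed to 0.225, 0.166 and 0.251 times the array's 75th percentile in adherent, non-adherent and re-adherent cells.

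The genes with the most similar profile across the 3 arrays were found by distance in log2 level after each of 13475 genes, well above background on all arrays, was centred on its own mean. For Serpina3n these were Krtap11-1 (distance 0.16), Ednrb (0.24) and Saa3 (0.26), and for Saa3 they were Lbp (0.23), Serpina3n (0.26) and Fos (0.27). Lbp, the lipopolysaccharide-binding protein, is itself an acute-phase gene. For Hp they were Cdh5 (0.04), the endothelial cadherin, Lum (0.44) and Mfap2 (0.46), so apart from Cdh5 no gene lay close to it. For Lcn2 they were Col5a3 (0.03), Il33 (0.05) and Hgf (0.19), and for Cp Kif3a (0.01), Stat5a (0.01) and Ehmt1 (0.02). With 3 arrays, these distances describe shape only. They rest on the brightest probe of each gene, and other probes differed for some. Krtap11-1 gave 4.70 in suspension and -5.17 on re-adhesion with the probe used, but 2.04 and -1.81 with its other probe. Ehmt1 gave 1.13 and -1.10, but -0.09 and -0.15 with its other probe. Other probes of Ednrb, Kif3a and Mfap2 gave different sizes in the same directions.

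The wider acute-phase set held genes that were high in suspension and a few that were not. Of 25 further acute-phase genes, 17 were measured. Of these, 12 were more than 4-fold higher in non-adherent than in adherent cells (7.61% of all genes) and 1 more than 4-fold lower (5.34%), with a median of 2.41. Saa2, Saa4, Orm2, Itih3 and Steap4 were measured only because of their signal in suspension, so their direction there was set by the filter. With normexp correction the count of 12 was 5, and for Saa4 and Orm2, not well above background in adherent cells, the fold that could be stated was at least 1.01 and at least 1.45. On re-adhesion 8 were more than 4-fold lower, against 6.05% of all genes, and 1 higher, against 5.7% (median -1.96). The 8 became 4 with normexp. Between re-adherent and adherent cells none passed 4-fold, against 1.36% of all genes higher and 1.29% lower. The sign of the median of -0.13 depended on the scaling (range -0.56 to 0.40). Itih4, an inter-alpha-trypsin inhibitor heavy chain, gave a signal of 52.2, 1934 and 82.8 in adherent, non-adherent and re-adherent cells (log2 differences 5.11 in suspension and -4.18 on re-adhesion). Saa2, a liver-type serum amyloid A, gave 4.20, 172 and 4.81, and Steap4, a metalloreductase, gave 6.95, 194 and 4.45. Both were well above background in suspension only, at least 9.59-fold and at least 10.8-fold over adherent cells. The gene more than 4-fold lower was Ptx3, a long pentraxin made by stromal and myeloid cells, with 28569 in adherent, 616 in non-adherent and 16809 in re-adherent cells. Its log2 difference was -5.63 in suspension and 5.13 on re-adhesion, the opposite of the 6 measured acute-phase members. Fgl1, a fibrinogen-like liver protein named after its values were seen, was also lower in suspension, by at least 2.45-fold (32.2, 12.0 and 24.5).

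Close relatives of the members, named after their values were seen, differed among themselves. Saa1 gave a signal of 1125 in adherent, 7171 in non-adherent and 742 in re-adherent cells (2.57 in suspension). Orm2 was well above background in suspension only, at 26.0, and Orm3 on no array. Saa1 and Saa2, the Serpina3 genes and the Orm genes are related copies within their families, and how much of a signal came from a relative's transcript was not tested.

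The mouse Serpina3 cluster on chromosome 12 holds many copies of 1 human gene. Of 10 further members, 9 had a probe and 6 were measured. In suspension 3 were more than 4-fold higher, against 7.61% of all genes, and none lower, against 5.34% (median 1.53). On re-adhesion 4 were more than 4-fold lower, against 6.05% of all genes (median -2.48). With normexp correction the 3 became 1 and the 4 became 0 (median -0.96 on re-adhesion). Serpina3c gave a signal of 6.50, 209 and 11.8 in adherent, non-adherent and re-adherent cells, Serpina3f 93.8, 620 and 107, and Serpina3i 82.4, 359 and 33.2. Serpina3c, measured only because of its signal in suspension, was at least 11.7-fold higher there. The differences of Serpina3f and Serpina3i were 2.63 and 2.03. The probes of Serpina3f disagreed in size, since its dimmer probe differed by 4.72 in suspension and by -1.62 between re-adherent and adherent cells, where the brighter gave 0.46. Serpina3m, at 22.3, 48.7 and 5.47, was not well above background in re-adherent cells. The genes of the cluster did not move as a block, since Serpina3b (259, 294 and 234) and Serpina3h (390, 333 and 424) differed by 0.08 and -0.33 in suspension.

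Among 10 other genes of WAP-domain proteins, the family of Wfdc21, 5 were measured. Of these, 2 were more than 4-fold higher in suspension, against 7.61% of all genes (median 1.67). On re-adhesion 3 were more than 4-fold lower, against 6.05% of all genes (median -2.03). Wfdc17, known from activated macrophages, gave 8895, 109430 and 8308 in adherent, non-adherent and re-adherent cells (3.52 and -3.36). Wfdc18 gave 295, 1757 and 281 (2.48 and -2.28). Both were highest in suspension, as was Wfdc21, but were well above background on plates, where Wfdc21 was not. Slpi, a secreted inhibitor of leukocyte elastase, gave 2176, 1351 and 415, lower at each step (log2 differences -0.79 and -1.34). Among 6 measured relatives of Lcn2 in the lipocalin family none was more than 4-fold different in suspension. Of all genes, 7.61% were higher and 5.34% lower by that much. The sign of the lipocalin median of 0.28 changed with spike-in scaling (-0.02).

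**Figure D4:**
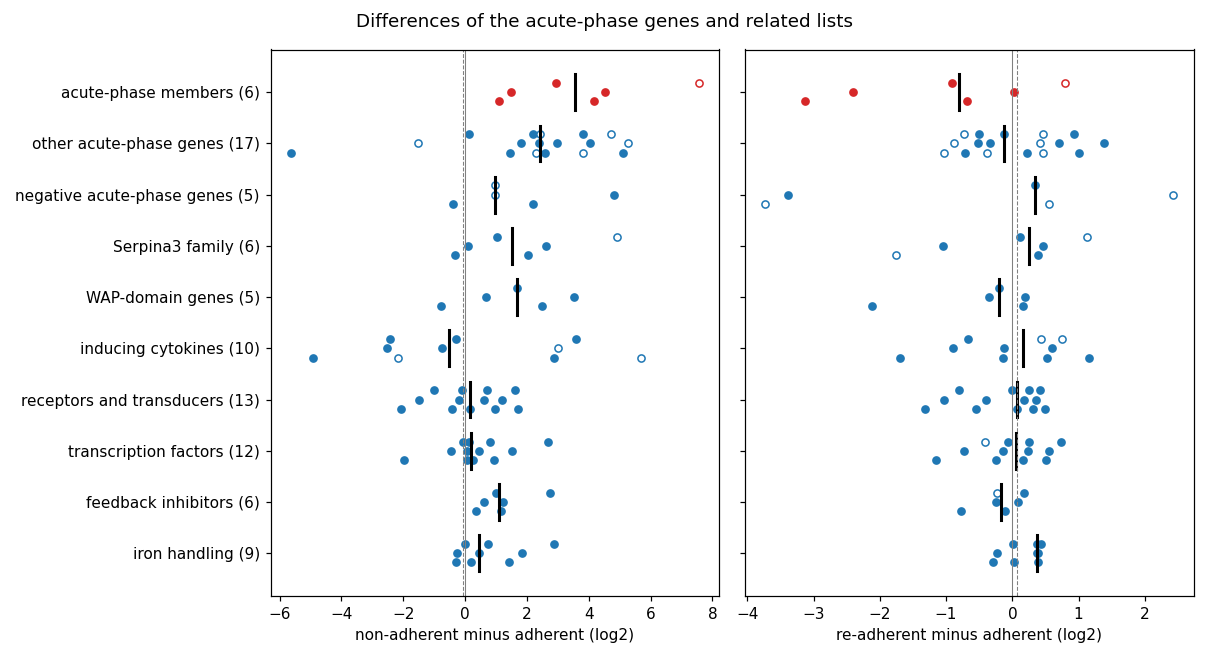
Log2 differences of single genes (points) in the lists of acute-phase genes, relatives, inducing cytokines, signalling genes and iron genes, for non-adherent (left) and re-adherent (right) minus adherent cells. Open points were not well above background in at least 1 state of the pair, black bars are list medians, numbers in brackets are tested genes and the dashed line is the median of all genes. The further acute-phase genes lie to the right in suspension, with a median of 2.41. Cytokines spread to both sides, with 4 over 4-fold higher (7.61% of all genes) and 4 lower (5.34%). Saa2, Saa4, Orm2, Itih3, Steap4, Il1a and Il1b were measured only because of their signal in suspension, so the filter set their direction there.

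The cytokines that induce acute-phase genes went both ways. Of 10 measured, 4 were more than 4-fold higher in suspension (7.61% of all genes) and 4 more than 4-fold lower (5.34%). The median was -0.53, and with normexp correction the counts were 2 and 2. Il6, the main inducer in the liver, gave a signal of 9717 in adherent, 345 in non-adherent and 4358 in re-adherent cells, and so was lowest where the acute-phase genes were highest (-4.91 in suspension and 4.02 on re-adhesion). Il11 (473, 93.8 and 122) and Clcf1 (861, 158 and 448), of the same cytokine family and named after their values were seen, were also lower in suspension, whereas Osm (28.2, 222 and 33.7), of that family too, was higher (2.88). Il1b gave 4.35, 241 and 4.94 and was at least 13.4-fold higher in suspension than in adherent cells. Tnf, encoding tumour necrosis factor, gave 121, 1544 and 222 (3.59 and -2.43), and Il1a was well above background in suspension only, at 36.6, at least 2.04-fold over adherent cells. Il1a and Il1b, among the 4 higher genes, were well above background in suspension only, so their peak there was set by the filter. Tnf, well above background on all arrays, also had its highest signal in suspension, and Il6 had its lowest there.

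Of 13 measured receptors and signal transducers, none was more than 4-fold higher in suspension (7.61% of all genes). Lower by more than 4-fold was 1 (5.34% of all genes), or 0 with normexp, the deposited matrix or no scaling. These counts are near the shares of all genes, so nothing is read from them. The sign of the median of 0.14 depended on the scaling. The interleukin-6 receptor chain Il6ra gave 2668, 9283 and 3106 in adherent, non-adherent and re-adherent cells (1.70), while the shared signalling chain Il6st gave 13648, 5188 and 8570 (-1.49). The pair of subunits therefore moved in opposite directions. Il1rap, the accessory chain of the interleukin-1 receptor, gave 383, 97.2 and 319 (-2.08).

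Of 12 measured transcription factors, 1 was more than 4-fold higher in suspension (7.61% of all genes). None was more than 4-fold lower (5.34% of all genes), or 1 with spike-in scaling. These counts are near the shares of all genes, so nothing is read from them. The higher gene was Cebpa, a C/EBP factor of liver, fat and myeloid cells, with a signal of 690 in adherent, 4757 in non-adherent and 842 in re-adherent cells (2.69 and -2.13). Cebpd, the C/EBP gene induced by interleukin-6, gave 60466, 16506 and 42290 (-1.97 and 1.72), the reverse order. The transcripts of Stat3 (16106, 12598 and 12119) and Cebpb (13296, 19509 and 12408) differed by -0.45 and 0.46 in suspension. Nfkbiz, an atypical NF-kappaB cofactor needed for Lcn2 induction, gave 844, 944 and 317, with a difference of 0.06 in suspension that changed sign with spike-in scaling (-0.24) and -1.21 on re-adhesion. RNA levels do not report phosphorylation or nuclear entry of these factors.

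Genes that STAT3 and NF-kappaB induce to limit their own signals were more than 4-fold higher in suspension in 1 of 6 cases (7.61% of all genes). On re-adhesion 1 of 6 was more than 4-fold lower (6.05% of all genes). At 2-fold the counts were 4 (17.2% of all genes) and 4 (16.3%). The first was 2 with normexp correction and 1 with spike-in scaling. Zfp36, which degrades cytokine messages, gave a signal of 141, 1014 and 99.0 (2.74 and -2.99), Nfkbia, the NF-kappaB inhibitor, 7057, 17698 and 6625 (1.23 and -1.05), and Socs3, the feedback inhibitor of interleukin-6 signalling, 4834, 7869 and 2361 (0.60 and -1.37). Among 8 glucocorticoid targets none was more than 4-fold higher in suspension (7.61% of all genes) and 1 was lower (5.34%). The lower gene was Errfi1 (14344, 3355 and 5497). The sign of the list median of 0.24 depended on the scaling.

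Receptors and partners of the members included both higher and lower genes. Of 15 measured, 4 were more than 4-fold higher in suspension (7.61% of all genes) and 1 lower (5.34%), with a median of 1.20. The 4 became 2 with spike-in scaling and the 1 became 0 with normexp. Cd163, the haptoglobin receptor, did not reach a signal well above background in any state. Tlr2, a receptor reported for serum amyloid A, gave a signal of 618, 8213 and 1326 in adherent, non-adherent and re-adherent cells (3.63), and Slc40a1, the iron exporter ferroportin that works with ceruloplasmin, gave 471, 5190 and 1631 (3.36). In re-adherent minus adherent cells they differed by 1.37 and 2.06. Lrp2, the megalin receptor that takes up lipocalin-2, gave 170, 32.4 and 180 (-2.49). Mmp9, the protease that binds lipocalin-2, gave 36.1, 89.2 and 5.64, the last not well above background.

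Among 9 measured genes of iron handling, 1 was more than 4-fold higher in suspension (7.61% of all genes) and none lower (5.34%). These counts are near the shares of all genes, so nothing is read from them (median 0.46). Steap3, the endosomal ferrireductase, gave 832, 6540 and 907 in adherent, non-adherent and re-adherent cells (2.88 and -2.49), and the transferrin receptor Tfrc gave 2062, 5929 and 1459 (1.43 and -1.66). Negative acute-phase genes, which the liver lowers in inflammation, did not mirror the positive ones. Of 7, 5 were measured, 2 of them more than 4-fold higher in suspension, against 7.61% of all genes (1 with spike-in scaling). Trf, encoding transferrin, gave 7522, 36555 and 7888 (2.18 and -1.85), and Ahsg, encoding fetuin-A, gave 123, 3672 and 7.68, the last not well above background, so that Ahsg was at least 156-fold lower on re-adhesion. Rbp4, a lipocalin that carries retinol, gave 512, 414 and 41.0 (-0.40 and -2.97).

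Markers of other cells moved with adhesion state. Of 12 macrophage markers 11 were measured. In non-adherent against adherent cells 9 of these markers were more than 4-fold higher (7.61% of all genes), with a list median of 2.69. Their summed signal was 213, 1309 and 423 times the 75th percentile in adherent, non-adherent and re-adherent cells. Ptprc, which encodes CD45, the protein used for depletion, gave a signal of 355, 2441 and 532. Most macrophage markers were thus higher in suspension, with the acute-phase genes. Between re-adherent and adherent cells their median was 0.85 (0.41 with spike-in scaling), and single markers ranged from -0.16 to 1.91. Hp, Lcn2, Serpina3n and Saa3 were lower in that comparison. The part of macrophage RNA in the member values was not tested.

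Of 12 neutrophil markers 7 were measured, and 1 was more than 4-fold higher in suspension (7.61% of all genes). The sign of the median of 0.06 changed with spike-in scaling. S100a9, Ngp, Retnlg and Cxcr2 did not reach a signal well above background in any state. At 2-fold, 2 of the 7 were higher in suspension (17.2% of all genes) and 2 lower (14.7%). Camp, an antimicrobial granule peptide, gave a signal of 177, 1844 and 83.4 (3.28), and S100a8 gave 341, 990 and 135 (1.44). The 2 lower genes were Mpo, named after its values were seen, with 150, 56.4 and 57.7 (-1.51), and Ltf. Ltf gave 26.2, 8.40 and 6.14 and was well above background in adherent cells only. The summed signal of the 7, most of it from Csf3r, was 105, 96.8 and 85.5 times the 75th percentile. The part of neutrophil RNA in the Lcn2 and Wfdc21 values was not tested.

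Of 6 adipocyte markers 5 were measured and 3 were more than 4-fold higher in suspension (7.61% of all genes). The median was 5.44, or 4.71 with signals raised to the lowest one well above background and 2.73 with normexp. Adipoq, Plin1, Cidec and Retn were well above background in suspension only, so their direction there was set by the filter. The summed signals of the list were 0.0721, 3.72 and 0.171 times the 75th percentile. Plin1, a lipid droplet protein, gave a signal of 3.36, 1219 and 3.72, and Adipoq, encoding adiponectin, gave 10.1, 469 and 19.0. Both were not well above background on the plated arrays, as was Wfdc21. Endothelial markers were more than 4-fold higher in suspension in 3 of 8 cases, against 7.61% of all genes (median 1.18). In re-adherent against adherent cells 4 of 8 were more than 4-fold lower, against 1.29% of all genes (median -1.99). Cdh5, the gene nearest to Hp, was among both. With normexp correction the second count was 0 (median -1.11). The signal of Cdh5 was 289, 2381 and 26.6, and re-adherent minus adherent was -3.18, or -1.50 with normexp. Whether adipocyte or endothelial RNA contributed to the values of Serpina3n, Saa3 or Hp was not tested.

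**Figure D5:**
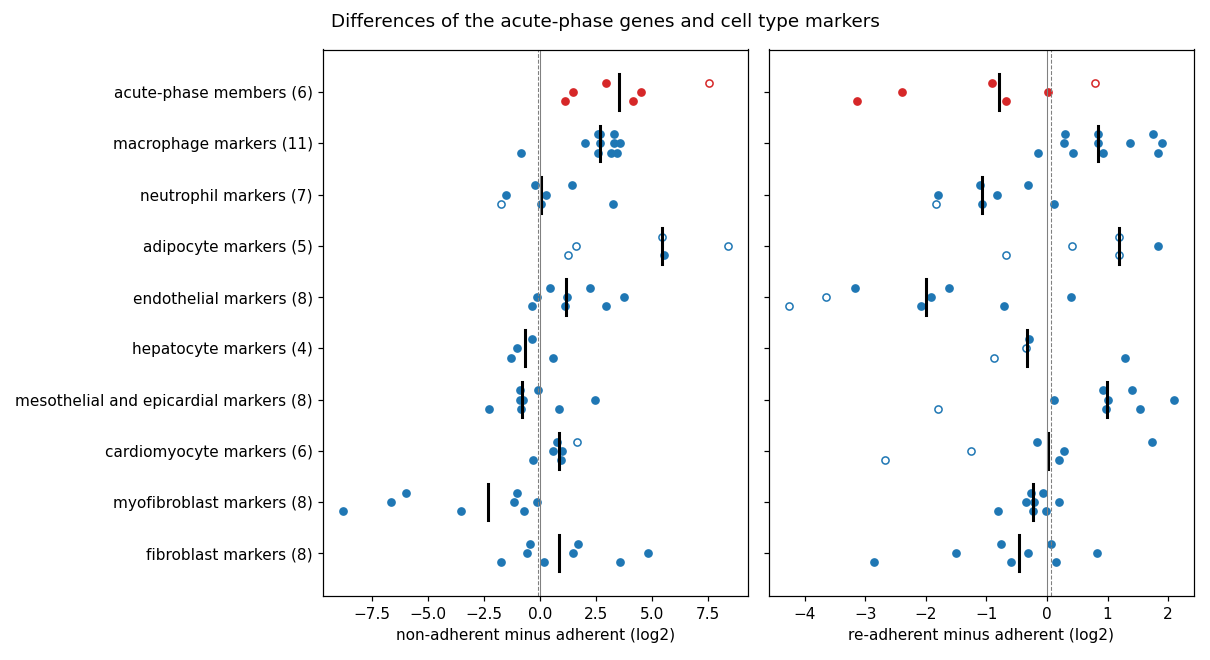
Log2 differences of single marker genes (points) for other cell types and for fibroblasts and myofibroblasts, for non-adherent (left) and re-adherent (right) minus adherent cells, with open points not well above background in at least 1 state of the pair, black bars at list medians and the dashed line at the median of all genes. Macrophage and adipocyte markers lie to the right in suspension, with medians of 2.69 and 5.44, and myofibroblast markers to the left, with a median of -2.33. Adipoq, Plin1, Cidec and Retn were measured only because of their signal in suspension, so the filter set their direction there.

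Of 8 myofibroblast markers 4 were more than 4-fold lower in non-adherent than in adherent cells (5.34% of all genes). None was more than 4-fold higher (7.61%), and the median was -2.33. Of 8 fibroblast markers 2 were more than 4-fold higher (7.61% of all genes) and none lower (5.34%), with a median of 0.84. Under quantile normalisation 3 were higher, and under spike-in scaling 1 was lower. The 2 were Lum (signal 3275, 41309 and 377), encoding the proteoglycan lumican and second nearest to Hp, and Dpt (99.6, 3005 and 86.5), encoding dermatopontin. The fibroblast factor gene Tcf21 (2788, 890.1 and 2572) had a difference of -1.75, and Thy1, a fibroblast surface marker counted in the myofibroblast list, gave 40445, 3823 and 28618 (-3.50).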

How the data were processed

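Gene expression in 1 array each of adherent, non-adherent and re-adherent mouse cardiac myofibroblasts was measured on 1-colour Agilent SurePrint G3 8x60K arrays. The authors deposited spot intensity values from Agilent Feature Extraction 10.10.1.1 (background-subtracted, detrended processed signal, not log-transformed, with an error and flags for each spot) and a matrix of intensity values that equalled the processed signal times 1 constant per array (1.52, 1.52 and 1.62). Flagged and control spots were left out. Signals were divided by the 75th percentile over non-control spots, log2-transformed and averaged over spots of a probe. Transcript names were matched to symbols through RefSeq (GRCm38.p6) for 27235 of 55681 probes. Each gene was represented by its brightest probe among those well above background in 1 or more states, and 4046 genes had more than 1. A gene well above background in 1 state only was measured because of that state, so its direction there was set by the filter. The array was designed on an earlier assembly, so the only coordinates given are those of RefSeq promoter windows on GRCm38.p6.

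The members and lists were chosen with earlier results of these data known. With 1 array per state no p-values were computed, and called means past 4-fold. For a probe not well above background on the dimmer array, the fold is a lower limit, taken against whichever was higher, the dim signal itself or the faintest spot on that array that was well above background. Named genes were all members, up to 4 genes per list with the largest difference, Il6, Il1b, Stat3, Cebpb, Cebpd and Nfkbiz, and the 3 nearest genes per member. Alternatives were normexp correction (limma 3.58.1, offset 50, run on the median spot signal and background because the files hold no mean signal), quantile normalisation, the deposited matrix, spike-in scaling, the percentile over probes detected on all arrays, no scaling, a stricter filter, raised low signals, mean of probes, kept spots and a 2-fold threshold. Scripts used Python 3.11.15 and R 4.3.3 and were tested on simulated data.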

Additional observations from a re-analysis of the deposited data

How the results depend on the processing

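The counts of members past 4-fold stayed within 1.5 times their value in 65 of 66 alternative settings. The exception was the count lower in re-adherent than in adherent cells, which was 2 and became 1 with normexp correction, where Hp was past the threshold and Lcn2 was not. That correction adds an offset of 50, which compresses low signals. Among all genes the same correction lowered the share more than 4-fold higher in suspension from 7.61% to 4.42% and the share lower on re-adhesion from 6.05% to 2.77%. The shares in the opposite directions went from 5.34% to 2.56% and from 5.7% to 2.83%, and those of re-adherent against adherent cells from 1.36% to 0.201% (higher) and from 1.29% to 0.143% (lower). Of the member differences, 142 stayed within the technical error and 35 moved further. Many of the 142 could not move. Each member had 1 probe, so the mean of probes changed none. For members well above background on every array, the stricter filter, raised low signals and kept spots returned the main value. The number of unchanged settings is therefore no measure of robustness. The sign changed for Cp between re-adherent and adherent cells, from 0.02 to -0.41 with spike-in scaling, and for no other member difference. Differences of Wfdc21 moved most, from 7.56 to 3.66 in suspension with normexp, since its plated signals were not well above background, and it has no value where every array must be well above background. Spike-in scaling moved the median of all genes to -0.37 for both comparisons against adherent cells, and no scaling moved it to -0.29 on re-adhesion.

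No paired analysis was possible because there was only 1 array in each state, and leaving out a replicate was likewise impossible. Precision was limited by the number of arrays, and signals near background limited Orm1 and Wfdc21.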

Other observations

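Hmox1, the haem oxygenase that breaks down haem, was read from the list of receptors and partners after its values were seen. It gave a signal of 31331 in adherent, 158600.0 in non-adherent and 47038 in re-adherent cells, with log2 differences of 2.24 in suspension and -1.39 on re-adhesion. Re-adherent cells kept 0.85 more than adherent cells on the log2 scale, whereas the difference of Hp was -3.13. The metallothioneins Mt1 and Mt2, metal-binding acute-phase genes also read after their values were seen, gave 43283, 163900.0 and 58795 and 21248, 62337 and 20538, with differences of 1.82 and 1.45 in suspension.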
